A study of Mus musculus with 8 samples.

Results

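The 10 genes described here belong to the mammalian circadian clock: the activators Arntl, Clock and Npas2, the repressors Per2, Per3, Cry1 and Cry2, the nuclear receptors Nr1d1 and Nr1d2, and the output factor Dbp. They were taken by symbol from a table of 24015 genes, all 10 were found in it, and all 10 passed the filter on low values that 13527 genes passed. The table holds RNA sequencing of cardiac fibroblasts from wild-type C57BL/6J mice aged 8 weeks. Cells were sampled at day 0, before any osteogenic differentiation medium, and after 7, 14 and 21 days in that medium, with 8 libraries, 2 per time. No cells kept in culture without the medium are among the samples, so the medium and the days in culture cannot be told apart. Nothing in the labels tells if libraries of 1 time are from different cultures or animals, so every p-value measures only the spread between these samples, which may be technical. The hour of harvest, the hour of the last medium change and the components of the medium are not given in the sources at hand here. A different clock phase and a different mean level therefore cannot be told apart in any comparison of the times.

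The circadian clock is a transcriptional feedback loop present in nearly every mammalian cell, cultured fibroblasts included. The proteins encoded by Arntl (BMAL1) and by Clock or Npas2 pair and switch on genes that carry an E-box, among them the Period and Cryptochrome genes, whose products return to the nucleus and repress that pair. In a second loop the receptors REV-ERB alpha (Nr1d1) and REV-ERB beta (Nr1d2) repress Arntl and the ROR receptors activate it, while factors such as Dbp carry the rhythm to output genes through the D-box. In cultured fibroblasts, serum and glucocorticoids are known to reset the phase of this loop, with Per1 and Per2 among the genes that respond directly.

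Values are normalized counts, reads per gene divided by a size factor for each library, from libraries of 13399313 to 21883498 reads, and the 10 clock genes had between 52 and 1622 reads in a library. All 8 fibroblast markers examined (Pdgfra, Col1a1, Col1a2, Dcn, Lum, Tcf21, Thy1, Ddr2) passed the filter, with summed levels of 428751 to 435195 normalized counts at day 0, 210317 to 222362 at day 7, 128151 to 164430 at day 14 and 189046 to 234688 at day 21. Col1a1 and Col1a2 carried most of the sum at day 0 (means of 249947 and 157633) and fell to 22418 and 42790 at day 14. By limma at adjusted p below 0.05, 5 of the 8 were called higher and 3 lower at days 7 and 21 against day 0. At day 14, 4 were higher and 3 lower. Of all tested genes, 55.4%, 70.7% and 59.4% were called at days 7, 14 and 21. All 11 macrophage markers examined were higher at days 7, 14 and 21 than at day 0, and their sum was 994 to 1077 normalized counts at day 0, 8657 to 10757 at day 7, 18674 to 34502 at day 14 and 17603 to 18489 at day 21. Lyz2 carried most of this sum, with means of 681, 8246, 24332 and 15974 at these times. The rise was smaller for Csf1r, with means of 170, 342, 350 and 315. The part of macrophages in the clock gene values was not tested, and in bulk RNA fewer cells of a type and less RNA per cell cannot be told apart. Long transcripts were lower at day 14: per doubling of transcript length, the log2 change across genes was -0.38 at day 14 against day 0, -0.14 at day 21 against day 0 and -0.01 at day 7 against day 0.

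Among the 10 clock genes, Per2 and Npas2 rose and Dbp fell at all 3 times in the medium relative to day 0, each by about 2-fold or more in normalized counts at most times, while Per3 passed the test in no comparison. Cry1 and Cry2 were modestly higher in the medium, Arntl and Nr1d1 were lower at day 14, and Clock and Nr1d2 moved little. By limma's moderated F test, 9 of the 10 differed somewhere among the 4 times, where 79.5% of all tested genes did, so the count is close to that share. The range over the 4 time means was 1.55 on the log2 scale for Dbp, 1.48 for Per2 and 1.16 for Npas2, against a median of 0.85 over all tested genes. The other members ranged less than that median, between 0.30 for Per3 and 0.79 for Arntl.

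**Figure D1:**
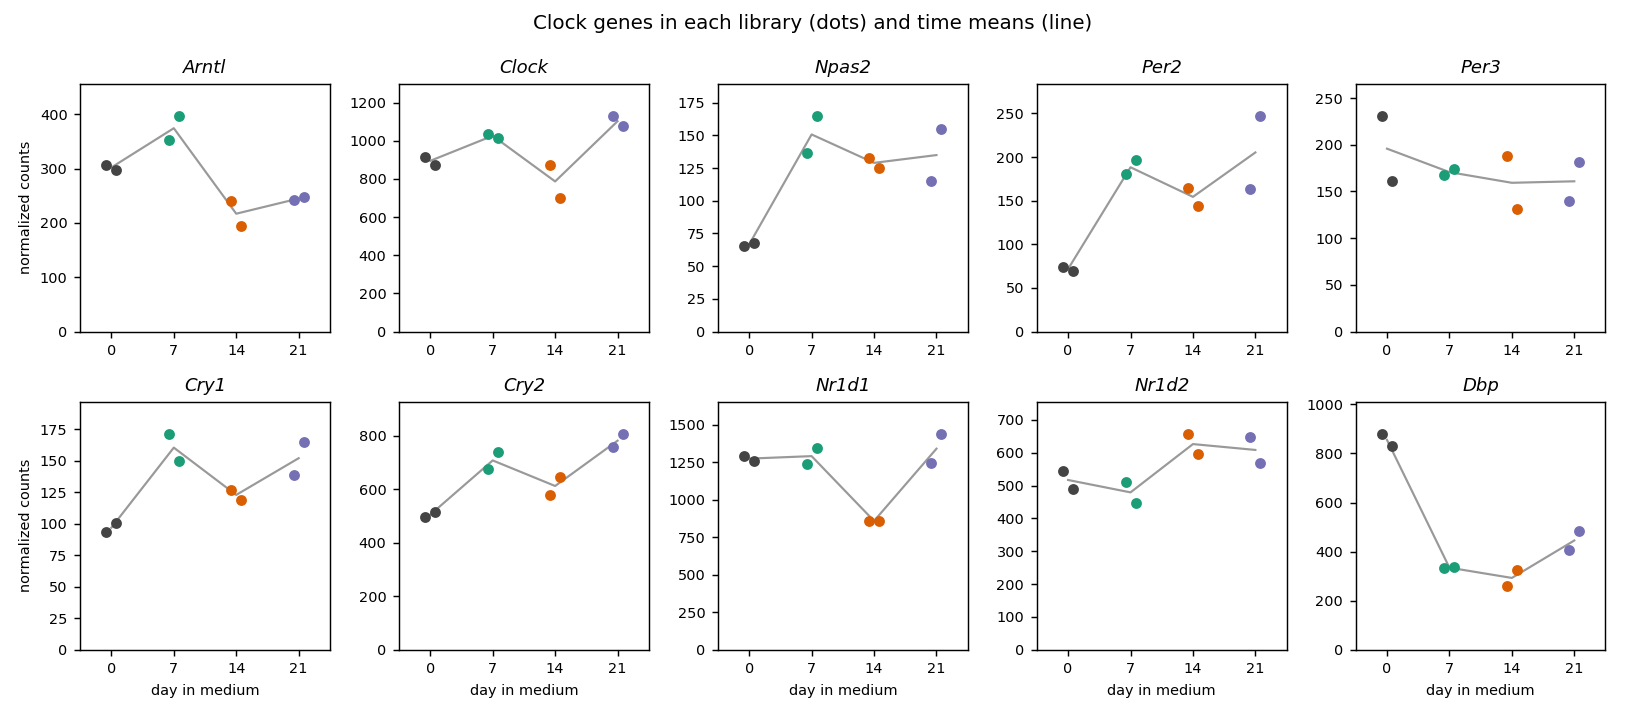
Normalized counts (vertical axes, each starting at 0) of the 10 clock genes in each of the 8 libraries by day in the medium (horizontal axes); points are libraries and lines join the means of the 2 libraries. Npas2 and Per2 sit lowest at day 0 and Dbp sits highest there, with no overlap with any later library.

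Arntl encodes BMAL1, the partner that both CLOCK and NPAS2 need. It had 306 and 298 normalized counts at day 0, then 352 and 397 (day 7), 240 and 194 (day 14) and 242 and 247 (day 21). Day 7 was the highest time, and all libraries of days 14 and 21 lay below those of day 0. Arntl fell to 0.715-fold at day 14 against day 0 (log2 change -0.48 ± 0.13 SE, adjusted p = 0.00627) and to 0.578-fold at day 14 against day 7 (-0.79 ± 0.13, adjusted p = 0.000516). The change at day 21 against day 7 was -0.61 (adjusted p = 0.0170), and this call was lost without the first or the second library of day 7 (adjusted p = 0.0810 and 0.200) or the first of day 21 (adjusted p = 0.0877). No pair of neighbours in the order day 7, day 0, day 21, day 14 passed the test: day 7 was 0.31 above day 0 (adjusted p = 0.0711, and 0.0339 with edgeR) and day 21 was -0.30 against day 0 (adjusted p = 0.0708, and 0.0155 with the trend on transcript length and GC content removed).

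The Arntl promoter is shown because the REV-ERB and ROR receptors described further on are known to act on this gene through an element of the kind it holds. The window is chr7:113207261-113207560 on the plus strand of GRCm38.p6, the second of the gene's windows in the RefSeq promoter table, and runs 5′ to 3′ from 250 bases before to 50 bases after an annotated start. Capitals mark the single copy of TAGGTCA, the ROR/REV-ERB element, at position 31 after that start.
Arntl: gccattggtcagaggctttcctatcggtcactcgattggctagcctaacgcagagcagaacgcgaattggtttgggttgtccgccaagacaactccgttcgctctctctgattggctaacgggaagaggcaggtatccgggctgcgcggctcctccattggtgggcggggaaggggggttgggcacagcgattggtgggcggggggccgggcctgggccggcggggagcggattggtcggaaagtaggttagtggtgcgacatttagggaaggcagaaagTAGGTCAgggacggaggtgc
On either strand, this motif is in 2.61% of the 32851 promoter windows of the same length, and among the 9 clock genes with a window Arntl was the only one to hold it. A match of letters is a description of the window and not a measured binding site.

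Clock, the histone acetyltransferase partner of BMAL1, was the steadiest activator. It had 915 and 875 normalized counts at day 0, then 1038 and 1015 (day 7), 871 and 702 (day 14) and 1130 and 1075 (day 21). Day 14 was the lowest time and day 21 the highest, and the libraries of these times did not overlap. Clock was 1.41-fold higher at day 21 than at day 14 (log2 change 0.49 ± 0.11 SE, adjusted p = 0.00596), 1.23-fold higher at day 21 than at day 0 (0.30, adjusted p = 0.0338) and 0.763-fold at day 14 against day 7 (-0.39, adjusted p = 0.0110). The calls hold unequally: that against day 0 was lost without any 1 library of days 0, 7 or 21 (adjusted p from 0.0561 to 0.163), and that of day 14 against day 7 without either library of day 7 or the second of day 14 (adjusted p from 0.0575 to 0.0839; the change without the second of day 14 was -0.24). Clock has the longest transcript of the 10, at 9744 bases, and with the trend on transcript length and GC content removed day 14 was 0.06 against day 7 (adjusted p = 0.511), 0.25 against day 0 (adjusted p = 0.00868), and day 21 was 0.13 against day 14 (adjusted p = 0.203).

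Npas2, a paralogue that can take the place of CLOCK, was the scarce activator and rose in the medium. It had 65.3 and 68.0 normalized counts at day 0, then 137 and 165 (day 7), 133 and 125 (day 14) and 115 and 155 (day 21). Every library from the medium exceeded both libraries of day 0, while the 3 later times lay close together. Npas2 was 2.23-fold higher at day 7 than at day 0 (log2 change 1.16 ± 0.18 SE, adjusted p = 0.000162), 1.92-fold higher at day 14 (adjusted p = 0.000500) and 1.99-fold higher at day 21 (adjusted p = 0.000466). None of the differences among days 7, 14 and 21 passed the test (adjusted p from 0.336 to 0.853). Counted in the same library, the ratio of Npas2 to Clock normalized counts was 0.0714 and 0.0777 at day 0, then 0.132 and 0.163 (day 7), 0.153 and 0.178 (day 14) and 0.102 and 0.144 (day 21). Clock thus remained the more abundant of the pair also per kb of transcript, with 113 normalized counts per kb at day 21 where Npas2 had 31.9.

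Per2, a Period repressor that is also an immediate responder to resetting signals, showed the largest rise among the 10. It had 74.0 and 69.3 normalized counts at day 0, then 180 and 196 (day 7), 165 and 144 (day 14) and 163 and 247 (day 21). No library from the medium came near the libraries of day 0, and the libraries of day 21 lay on either side of both libraries of day 7. Per2 was 2.60-fold higher at day 7 than at day 0 (log2 change 1.38 ± 0.19 SE, adjusted p = 5.9e-05), 2.13-fold higher at day 14 (1.09, adjusted p = 0.000233) and 2.78-fold higher at day 21 (1.48, adjusted p = 2.79e-05). These calls held when any 1 library was left out. In the order day 21, day 7, day 14, day 0, the later neighbours did not pass the test, with adjusted p = 0.797 for day 21 against day 7 and 0.226 for day 14 against day 7.

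Per3, the third Period gene, passed the test between no pair of times. It had 231 and 161 normalized counts at day 0, then 168 and 174 (day 7), 188 and 131 (day 14) and 140 and 182 (day 21). The libraries of every pair of times overlapped, and its F test gave adjusted p = 0.538. Its change at day 7 against day 0 was -0.17 ± 0.21 (log2, SE), and at day 14 against day 0 -0.30 (adjusted p = 0.228), which became -0.55 (adjusted p = 0.0377) without the first library of day 14. With this spread between libraries, small changes of Per3 would not have been detectable. The ratio of Per2 to Per3 normalized counts in the same library was 0.321 and 0.431 at day 0, then 1.08 and 1.13 (day 7), 0.879 and 1.10 (day 14) and 1.17 and 1.36 (day 21), so the ratio, which leaves transcript length aside, was lower in both libraries of day 0 than in any later one.

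Per1, the closest relative of Per2, is not among the 10 but completes the Period family. It had 381 and 388 normalized counts at day 0, then 1176 and 1319 (day 7), 920 and 968 (day 14) and 1435 and 1704 (day 21). Every library from the medium held more than 2-fold the Per1 of either library of day 0. Per1 was 3.23-fold higher at day 7 than at day 0 (log2 change 1.69 ± 0.11 SE, adjusted p = 7.89e-08), 2.45-fold higher at day 14 (adjusted p = 4.73e-07) and 4.06-fold higher at day 21 (adjusted p = 1.14e-08). Per kb of transcript, Per1 averaged 82.3, 267, 202 and 336 normalized counts at days 0, 7, 14 and 21, above Per2 with 12.3, 32.3, 26.5 and 35.2 and above Per3 with 32.6, 28.5, 26.6 and 26.8.

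**Figure D2:**
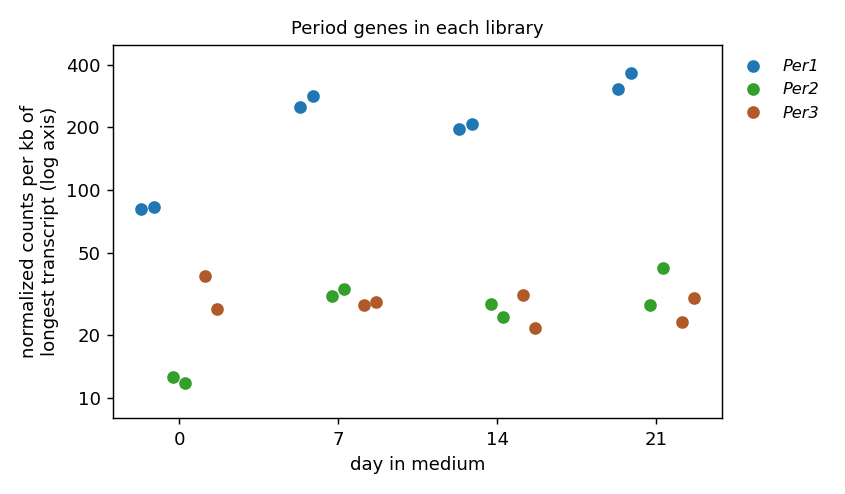
Normalized counts per kb of the longest annotated transcript (vertical axis, log scale) of Per1, Per2 and Per3 in each library by day in the medium (horizontal axis); each point is 1 library. Per1 is the highest in all 8 libraries, and Per2 lies below Per3 at day 0 and among or above the Per3 points later.

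The Per3 promoter is shown because it was the only one of the 9 clock gene windows that held a D-box, the element to which Dbp and its relatives bind, and it held a pair of them. The window is chr4:151044616-151044915 on the minus strand of GRCm38.p6 (RefSeq), written 5′ to 3′ in the direction of the gene, and capitals mark TTATGTAA at positions -205 and -158 from the annotated start.
Per3: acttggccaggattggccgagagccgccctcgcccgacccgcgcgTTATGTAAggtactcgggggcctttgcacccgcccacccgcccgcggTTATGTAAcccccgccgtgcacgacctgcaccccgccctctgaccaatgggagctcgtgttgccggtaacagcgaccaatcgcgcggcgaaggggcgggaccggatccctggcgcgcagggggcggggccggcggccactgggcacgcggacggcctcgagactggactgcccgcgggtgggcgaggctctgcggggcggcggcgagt
The D-box letters, on either strand, are in 0.938% of all promoter windows. Per3 levels passed no test between times while Dbp itself fell, and the data hold no measurement of binding at these letters.

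The Cryptochromes, the repressors that bind CLOCK and BMAL1 directly, both rose in the medium. Cry1 had 93.2 and 101 normalized counts at day 0, then 171 and 150 (day 7), 127 and 119 (day 14) and 139 and 165 (day 21). Its later libraries all exceeded those of day 0, with day 14 the lowest of the later times. Cry1 was 1.65-fold higher at day 7 than at day 0 (log2 change 0.72 ± 0.16 SE, adjusted p = 0.00209) and 1.56-fold higher at day 21 (0.64, adjusted p = 0.00397), whereas day 14 did not pass (0.34, adjusted p = 0.0723; 0.0368 with upper quartile scaling). In the order day 7, day 21, day 14, day 0 no neighbours passed the test.

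Cry2 was the more abundant Cryptochrome. It had 496 and 513 normalized counts at day 0, then 675 and 739 (day 7), 577 and 646 (day 14) and 756 and 805 (day 21). All later libraries exceeded those of day 0, and those of day 21 exceeded all others. Cry2 was 1.40-fold higher at day 7 than at day 0 (log2 change 0.49 ± 0.11 SE, adjusted p = 0.00193), 1.21-fold higher at day 14 (0.28, adjusted p = 0.0335) and 1.55-fold higher at day 21 (0.63, adjusted p = 0.000252), and it was 1.28-fold higher at day 21 than at day 14 (0.35, adjusted p = 0.0226). Both calls that involve day 14 are fragile: that against day 0 was lost without either library of day 0 or day 7 or the second of day 14 (adjusted p from 0.0558 to 0.153) and with DESeq2 (adjusted p = 0.0596), and was 0.48 with the length and GC trend removed. That of day 21 was lost without the first library of day 14 or the second of day 21 (adjusted p = 0.0719 and 0.110), with upper quartile scaling (0.28, adjusted p = 0.0527) and with the trend removed (0.19, adjusted p = 0.130). Per kb, Cry2 averaged 127, 178, 154 and 196 normalized counts at days 0, 7, 14 and 21, and Cry1 averaged 32.0, 53.0, 40.6 and 50.3.

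The Cry1 promoter is shown because it alone, among the 9 clock genes with a window, held the canonical E-box. These are the letters CACGTG, bound by BMAL1 and its partner. The window is chr10:85185005-85185304 on the minus strand of GRCm38.p6 (RefSeq), 5′ to 3′ in the direction of the gene, and capitals mark the E-box at position -60 and, at position -79, AACGTG, the other strand of the E-box variant CACGTT.
Cry1: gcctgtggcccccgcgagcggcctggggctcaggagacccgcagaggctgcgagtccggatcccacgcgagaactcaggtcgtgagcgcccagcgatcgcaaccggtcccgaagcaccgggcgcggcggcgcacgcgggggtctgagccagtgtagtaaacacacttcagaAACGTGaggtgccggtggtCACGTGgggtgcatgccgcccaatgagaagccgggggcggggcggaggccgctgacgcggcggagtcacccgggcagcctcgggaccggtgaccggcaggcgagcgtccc
The canonical letters are in 7.15% of all promoter windows and the variant, on either strand, in 4.68%. The variant was also found in the windows of Cry2, at position -166, and of Nr1d1, at position -28.

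Nr1d1 encodes REV-ERB alpha, a heme-sensing repressor of Arntl. It had 1291 and 1255 normalized counts at day 0, then 1238 and 1342 (day 7), 860 and 856 (day 14) and 1242 and 1437 (day 21). Day 14 stood apart: both of its libraries lay below the other 6, whose times overlapped with each other. Nr1d1 fell to 0.674-fold at day 14 against day 0 (log2 change -0.57 ± 0.10 SE, adjusted p = 0.000255) and to 0.666-fold at day 14 against day 7 (adjusted p = 0.000521), and was 1.56-fold higher at day 21 than at day 14 (0.64, adjusted p = 0.00105). These 3 calls held when any 1 library was left out and with the length and GC trend removed, where the change at day 14 against day 0 was -0.65 (adjusted p = 1.25e-05). The differences at day 7 and at day 21 against day 0 were 0.02 ± 0.10 and 0.07 ± 0.10 (adjusted p = 0.893 and 0.572). Nr1d1 shares 263 exon bases with Thra, the thyroid hormone receptor alpha gene on the opposite strand. The library strand is not known from the labels, so whether reads there were counted for Nr1d1, for Thra or for neither is not known.

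The Nr1d1 promoter is shown beside that of Cry1 because Nr1d1 is a known E-box target. The window is chr11:98775328-98775627 on the minus strand of GRCm38.p6 (RefSeq), 5′ to 3′ in the direction of the gene, with the E-box variant in capitals as AACGTG.
Nr1d1: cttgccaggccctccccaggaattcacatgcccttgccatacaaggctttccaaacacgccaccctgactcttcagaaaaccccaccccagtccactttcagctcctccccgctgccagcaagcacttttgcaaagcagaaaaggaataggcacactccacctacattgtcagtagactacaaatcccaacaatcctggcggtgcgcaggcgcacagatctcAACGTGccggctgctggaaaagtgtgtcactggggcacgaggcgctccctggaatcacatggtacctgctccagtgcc
The canonical CACGTG letters are not in this window, which says nothing of the rest of the gene.

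Nr1d2, which encodes REV-ERB beta, was higher at day 14 than at day 7, the comparison in which Nr1d1 was lower. It had 544 and 490 normalized counts at day 0, then 512 and 447 (day 7), 657 and 596 (day 14) and 647 and 570 (day 21). The libraries of days 14 and 21 lay above those of days 0 and 7, and the spread within a time was a large part of these differences. Nr1d2 was 1.31-fold higher at day 14 than at day 7 (log2 change 0.39 ± 0.12 SE, adjusted p = 0.0164), a call lost without the second library of day 7 (0.29, adjusted p = 0.165) or the first of day 14 (0.32, adjusted p = 0.0609). Against day 0, day 14 was 0.28 higher and just missed the threshold (adjusted p = 0.0532; 0.0817 with DESeq2, 0.0324 with edgeR, 0.0465 with TMM scaling, 0.0232 with upper quartile scaling and 0.0106 with the length and GC trend removed). The ratio of Nr1d1 to Nr1d2 normalized counts was 2.37 and 2.56 at day 0, then 2.42 and 3.00 (day 7), 1.31 and 1.44 (day 14) and 1.92 and 2.52 (day 21), with both libraries of day 14 below all others.

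Dbp encodes a PAR bZIP activator that binds the D-box, and it is among the genes with the widest daily swing in many tissues. It had 879 and 832 normalized counts at day 0, then 333 and 335 (day 7), 259 and 326 (day 14) and 406 and 484 (day 21). Both libraries of day 0 lay far above the other 6, and those of day 21 above all of days 7 and 14. Dbp fell to 0.392-fold at day 7 against day 0 (log2 change -1.35 ± 0.13 SE, adjusted p = 3.48e-06), to 0.341-fold at day 14 (-1.55, adjusted p = 5.55e-07) and to 0.519-fold at day 21 (-0.95, adjusted p = 6.17e-05), and these calls held when any 1 library was left out. It was 1.52-fold higher at day 21 than at day 14 (0.61, adjusted p = 0.00537), a call lost without the second library of day 21 (0.48, adjusted p = 0.0540). Day 14 against day 7 was -0.20 (adjusted p = 0.226; -0.36 and 0.0123 with the length and GC trend removed, -0.37 and 0.0411 without the second library of day 14). Dbp shares 539 exon bases with Sphk2 on the opposite strand, and Sphk2 passed the test at none of the 3 times against day 0, with log2 changes of -0.14, -0.24 and -0.09.

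The Dbp promoter is shown because Dbp fell the most. The window is chr7:45704997-45705296 on the plus strand of GRCm38.p6 (RefSeq), 5′ to 3′, and none of the 6 motifs searched is in it, so it carries no capitals.
Dbp: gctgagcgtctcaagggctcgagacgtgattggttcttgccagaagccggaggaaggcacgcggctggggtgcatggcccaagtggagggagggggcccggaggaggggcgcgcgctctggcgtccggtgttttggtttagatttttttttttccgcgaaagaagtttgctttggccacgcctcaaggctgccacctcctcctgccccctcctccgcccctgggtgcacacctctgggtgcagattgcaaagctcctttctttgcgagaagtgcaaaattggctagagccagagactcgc
The other motifs searched on both strands were a glucocorticoid receptor element (the letters ACA, any 3 bases, TGT, any base and C), found in 3.11% of all promoter windows, and the cAMP response element TGACGTCA, found in 1.79%. Neither set of letters is in any of the 9 clock gene windows.

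Across the 10, 4 clock genes were called higher and 1 lower at day 7 against day 0, which is 5 of 10 where limma called 55.4% of all tested genes (27.5% higher and 27.9% lower). At day 14 against day 0, 3 were higher (Npas2, Per2, Cry2) and 3 lower (Arntl, Nr1d1, Dbp), or 6 of 10 where 70.7% of all genes were called (35.2% higher and 35.6% lower). At day 21 against day 0, 5 were higher (Clock, Npas2, Per2, Cry1, Cry2) and Dbp was lower, or 6 of 10 where 59.4% were called (29.8% higher and 29.5% lower). The counts are thus near the background in all 3. The median log2 change of the 10 against day 0 was 0.25 at day 7, 0.04 at day 14 and 0.27 at day 21, and that of all tested genes was -0.01, 0.00 and 0.00. The 3 comparisons share the libraries of day 0, so their values are not independent of each other.

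**Figure D3:**
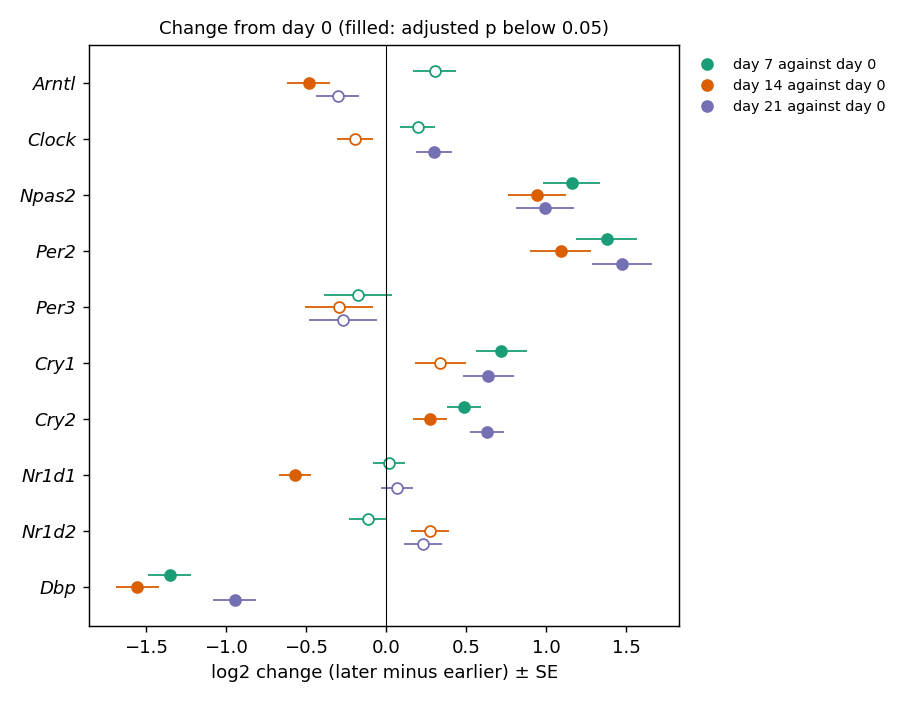
Log2 change of each of the 10 clock genes (rows) at days 7, 14 and 21 against day 0 (horizontal axis, log2 of the value plus 1); bars are standard errors of the limma fit, and filled points passed adjusted p below 0.05. Npas2 and Per2 lie right of 0 and Dbp left of 0 at all 3 times, and Arntl and Nr1d1 are filled to the left at day 14 alone.

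At day 14 against day 7, Nr1d2 was higher and Arntl, Clock and Nr1d1 lower, or 4 of 10 where 52% of all genes were called (25% higher and 27% lower). At day 21 against day 14, Clock, Cry2, Nr1d1 and Dbp were higher and none was lower, or 4 of 10 where 34.5% were called (20.2% higher and 14.3% lower). At day 21 against day 7, Arntl alone was called, 1 of 10 where 8.74% were called (5.46% higher and 3.28% lower). With 1 library left out, the number of all genes called ran from 262 to 2173 (1182 with all 8) at day 21 against day 7 and from 2303 to 5750 (4664) at day 21 against day 14. The median log2 change of the 10 was -0.25, 0.33 and 0.07 in these 3 comparisons, against 0.00, 0.02 and 0.01 over all tested genes. Across genes, the log2 change per doubling of transcript length was -0.37, 0.24 and -0.13 in the same order. Removing the length and GC trend left 2 calls at day 21 against day 14. It also made the changes of Clock, Npas2, Per2, Per3 and Cry2 at day 14 against day 7 positive (0.06, 0.03, 0.22, 0.38 and 0.04). Those of Arntl, Cry1, Nr1d1 and Dbp stayed negative. The medians were not recomputed with the trend removed.

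**Figure D4:**
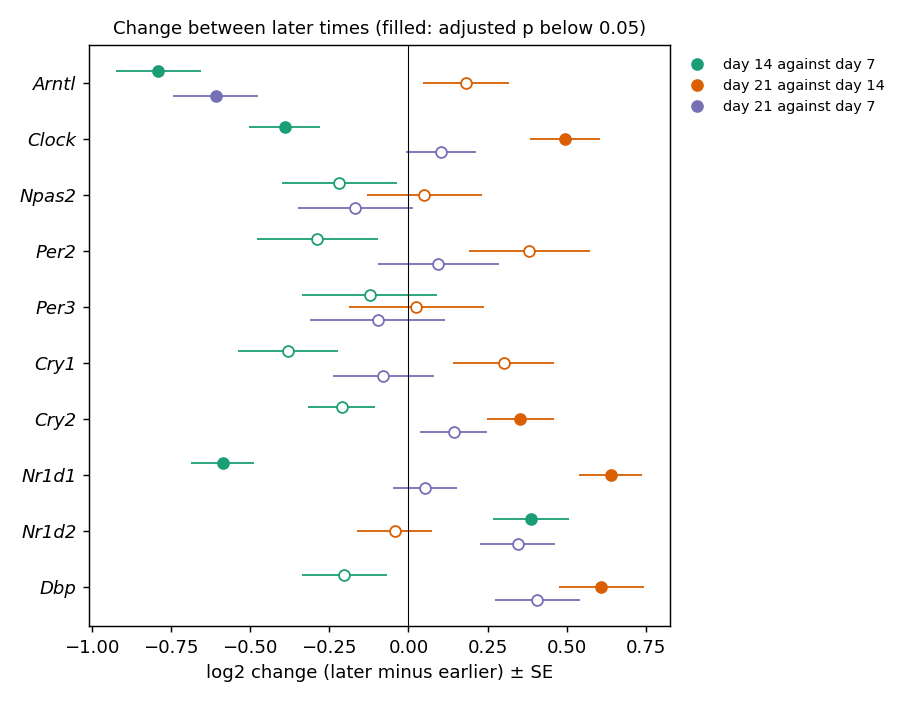
Log2 change of each of the 10 clock genes (rows) between the later times (horizontal axis, log2 of the value plus 1) with standard errors of the limma fit; filled points passed adjusted p below 0.05. The changes of Nr1d1 and Clock at day 14 against day 7 and at day 21 against day 14 lie on opposite sides of 0, and both comparisons share the libraries of day 14.

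At day 0 the most abundant of the 10 per kb of transcript were Nr1d1 and Dbp, with 468 and 466 normalized counts per kb, and the scarcest were Npas2 with 15.7 and Per2 with 12.3. At day 21 Nr1d1 had 492 normalized counts per kb, Dbp 242, Cry2 196, Nr1d2 131, Clock 113, Arntl 61.3, Cry1 50.3, Per2 35.2, Npas2 31.9 and Per3 26.8. Per2 had thus passed Per3 in mean level per kb, though libraries of the pair overlapped at day 21. The Arntl mean per kb was above that of Npas2 at all 4 times.

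Of the 11 other transcription factors of the loop, 9 passed the filter. Rorb, a ROR receptor gene with at most 2.14 normalized counts in a library, was among those that did not. Relative to day 0, 3 of the 9 were called higher and 2 lower at day 7, 2 higher and 4 lower at day 14, and 4 higher and 1 lower at day 21. These are shares of 55.6%, 66.7% and 55.6%, close to the 55.4%, 70.7% and 59.4% of all tested genes. Rora, the ROR receptor that activates Arntl, had 377 and 332 normalized counts at day 0, then 800 and 745 (day 7), 489 and 390 (day 14) and 666 and 725 (day 21). It was 2.18-fold higher at day 7 than at day 0 (log2 change 1.12 ± 0.13 SE, adjusted p = 1.18e-05) and 1.96-fold higher at day 21 (adjusted p = 3.31e-05). Its 1.23-fold rise at day 14 (adjusted p = 0.0494) was lost in 7 of the 8 fits that left out 1 library (adjusted p from 0.0523 to 0.33, with a log2 change of 0.14 without the first library of day 14) and with DESeq2 (adjusted p = 0.0662).

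The E-box repressors of the DEC family were lowest at day 14. Bhlhe40 (DEC1) had 2613 and 2529 normalized counts at day 0, then 972 and 1094 (day 7), 850 and 753 (day 14) and 2632 and 2579 (day 21). The libraries of days 7 and 14 lay far below those of days 0 and 21, and day 21 was 0.02 ± 0.10 (log2 change, SE) against day 0 (adjusted p = 0.878). Bhlhe40 fell to 0.401-fold at day 7 (adjusted p = 3.13e-07) and 0.311-fold at day 14 (adjusted p = 2.05e-08) against day 0, and was 3.25-fold higher at day 21 than at day 14 (adjusted p = 3.41e-06). Its paralogue Bhlhe41 (DEC2) had 326 and 305 normalized counts at day 0, then 228 and 264 (day 7), 172 and 175 (day 14) and 234 and 315 (day 21). Bhlhe41 was lower at day 14 than at day 0 (-0.85 ± 0.15, adjusted p = 0.000305). At day 7 against day 0 it was -0.36 (adjusted p = 0.0642), which passed without either library of day 14 or day 21 (adjusted p from 0.0311 to 0.0485) and with the length and GC trend removed (adjusted p = 0.0371). Its change of -0.49 at day 14 against day 7 (adjusted p = 0.0176) became -0.07 (adjusted p = 0.733) with that trend removed and -0.39 (adjusted p = 0.150) without the second library of day 7.

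Ciart (CHRONO), a repressor of BMAL1 and CLOCK, fell at all 3 times against day 0. It had 54.9 and 37.9 normalized counts at day 0, then 11.8 and 9.81 (day 7), 13.7 and 14.0 (day 14) and 12.8 and 26.3 (day 21). Both libraries of day 0 exceeded all others, but Ciart was scarce: its 2 libraries together held 24 reads at day 7 and 27 at day 14. Ciart fell to 0.252-fold at day 7 (adjusted p = 0.000637), 0.318-fold at day 14 (adjusted p = 0.00154) and 0.416-fold at day 21 (adjusted p = 0.0106) against day 0, and the last call was lost without the first library of day 0 (adjusted p = 0.103) or of day 21 (log2 change -0.78, adjusted p = 0.110). Its promoter window held 3 copies of the canonical E-box, at positions -116, -58 and -44. Among the other relatives, these letters were also in windows of Per1 (position -166), Bhlhe41 (-153) and Tef (-127 and -138).

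Other factors that bind the D-box had profiles of their own. Tef, a PAR bZIP activator like Dbp, had 1372 and 1385 normalized counts at day 0, then 1400 and 1373 (day 7), 1405 and 1448 (day 14) and 1431 and 1733 (day 21), and its F test gave adjusted p = 0.285. With the length and GC trend removed, Tef was 0.28 higher on the log2 scale at day 14 than at day 0 (adjusted p = 0.0063). Hlf, the third PAR bZIP gene, was scarce, with 23.9 and 14.4 normalized counts at day 0, then 36.4 and 40.1 (day 7), 19.1 and 18.7 (day 14) and 53.4 and 49.6 (day 21). Hlf was 2.68-fold higher at day 21 than at day 0 (adjusted p = 0.000929), and its 2.01-fold rise at day 7 (adjusted p = 0.00976) was lost with DESeq2 (adjusted p = 0.0658) and without the second library of day 0 (log2 change 0.66, adjusted p = 0.104) or of day 7 (adjusted p = 0.0659). Nfil3 (E4BP4), the repressor that competes for the D-box, had 1004 and 947 normalized counts at day 0, then 822 and 889 (day 7), 607 and 686 (day 14) and 1287 and 1363 (day 21). It was lowest at day 14, at 0.662-fold of day 0 (adjusted p = 0.00021), and highest at day 21, at 1.36-fold of day 0 (adjusted p = 0.00252). Arntl2, the paralogue of Arntl, had 53.3 and 66.7 normalized counts at day 0 and 81.1 and 91.2 at day 14, and passed the test in no comparison (adjusted p = 0.0514 for day 14 against day 0, and 0.0327 with edgeR).

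**Figure D5:**
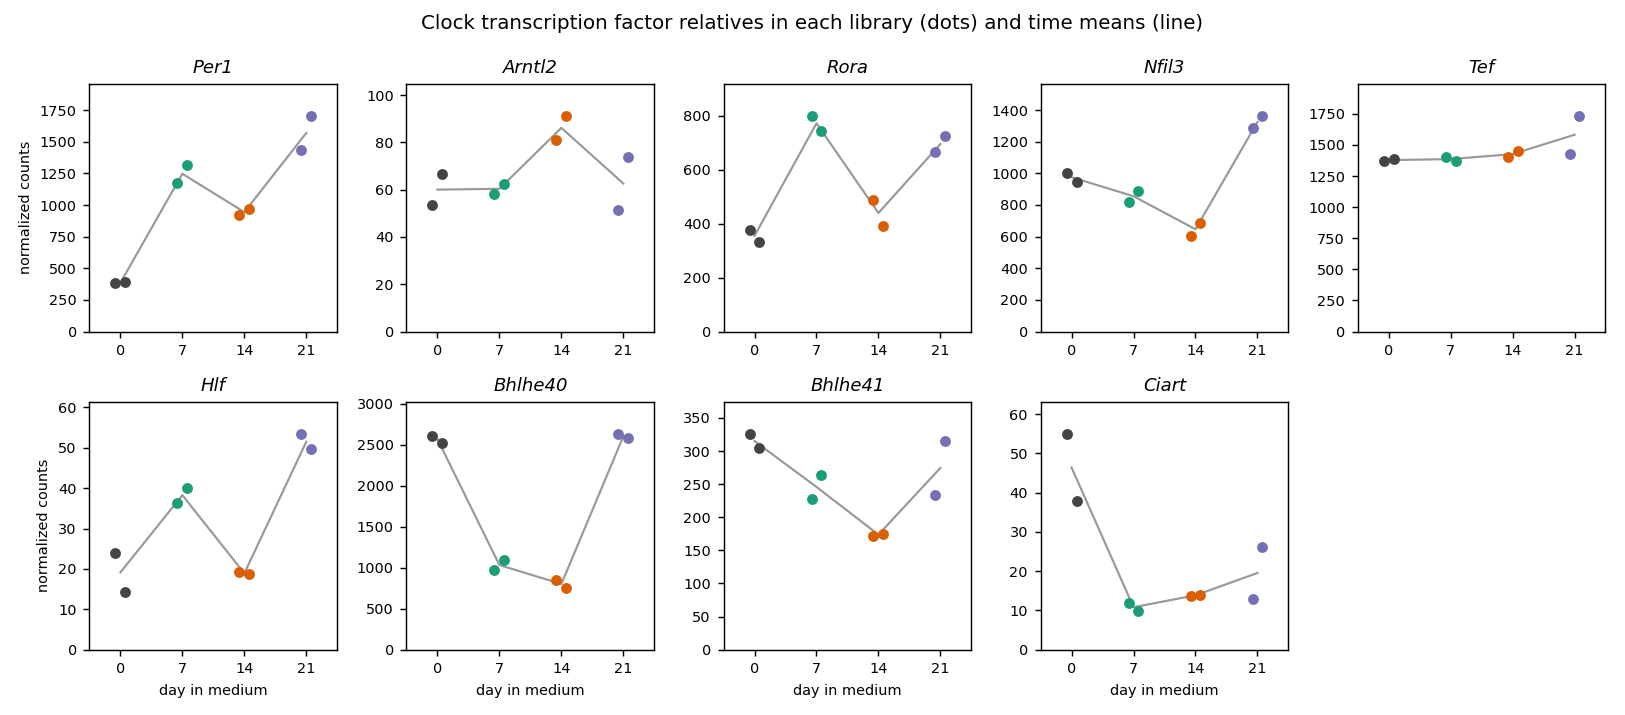
Normalized counts (vertical axes, each starting at 0) in each library by day in the medium (horizontal axes) of the 9 tested transcription factors related to the 10 clock genes; points are libraries and lines join means. Per1 is lowest and Ciart highest at day 0, and Bhlhe40 is at about 2600 normalized counts at days 0 and 21 and 753 to 1094 between.

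Among 17 kinases, phosphatases and ubiquitin ligases that act on clock proteins, 2 were called higher and 3 lower at day 7 against day 0, 3 higher and 8 lower at day 14, and 3 higher and 7 lower at day 21. The called shares were 29.4%, 64.7% and 58.8%, at or below the 55.4%, 70.7% and 59.4% of all tested genes. Fbxl21, a ubiquitin ligase subunit that binds Cryptochromes, was scarce and was 2.01-fold higher at day 21 than at day 0 (adjusted p = 0.00427). Gsk3b, a kinase with several clock substrates, was 0.361-fold at day 14 against day 0 (adjusted p = 9.34e-08) and 0.662-fold at day 21. Its longest transcript has 8303 bases, and long transcripts were lower at day 14 across genes.

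Of 14 cofactors of the clock complexes, 2 were called higher and 6 lower at day 7 against day 0, 2 higher and 7 lower at day 14, and 3 higher and 8 lower at day 21, shares of 57.1%, 64.3% and 78.6% where 55.4%, 70.7% and 59.4% of all tested genes were called. Id2, an inhibitor of helix-loop-helix factors, was 2.58-fold higher at day 7 than at day 0, 5.44-fold at day 14 and 5.02-fold at day 21 (adjusted p at most 1.06e-07). Crebbp, a histone acetyltransferase, fell to 0.287-fold at day 14 (adjusted p = 3.47e-07), and Sfpq, an RNA-binding protein found with the Period complex, to 0.377-fold at day 14 (adjusted p = 1.09e-06) against day 0. The longest Crebbp transcript has 10820 bases. The part of transcript length in the Crebbp and Gsk3b values was not tested. Of 16 genes known as clock outputs, 15 were tested, with 9 higher and 3 lower at day 7, 7 higher and 5 lower at day 14, and 8 higher and 3 lower at day 21. These shares of 80%, 80% and 73.3% lie above the 55.4%, 70.7% and 59.4% of all tested genes. The list was chosen with earlier results of these data known.

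The outputs with the largest changes all rose. Pdk4, the kinase that shuts off pyruvate dehydrogenase, had 120 and 139 normalized counts at day 0 and 3677 to 4278 in the medium, a 29.0-fold rise at day 7 (log2 change 4.86 ± 0.10 SE, adjusted p = 5.82e-11). Nampt, the rate-limiting enzyme of NAD salvage, was 3.55-fold higher at day 7, 5.11-fold at day 14 and 5.15-fold at day 21 than at day 0. Rgs16, a regulator of G protein signalling, was 2.98-fold higher at day 7 and 3.52-fold at day 21, where its libraries held 696 and 382 normalized counts. Over all 58 genes of the 4 lists, 55 were tested, and 30 were called at day 7, 38 at day 14 and 37 at day 21 against day 0, shares of 54.5%, 69.1% and 67.3% beside the backgrounds given above.

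Known targets of the glucocorticoid receptor were higher at all 3 times in the medium. All 10 examined passed the test against day 0 at each time, with median log2 changes of 3.43, 3.60 and 3.64, where 55.4%, 70.7% and 59.4% of all tested genes were called with median changes of -0.01, 0.00 and 0.00. This list was chosen with earlier results of these data known, so its count and medians cannot test for glucocorticoid signalling. The summed level of these 10 targets was 6068 to 6472 normalized counts at day 0, 40599 to 42338 at day 7, 50428 to 52570 at day 14 and 61839 to 61923 at day 21. From day 14 to day 21 the Dusp1 mean rose from 4311 to 16018, and the Mt2 mean fell from 18734 to 15132. In that comparison 3 of the 10 were called higher and 2 lower, where 34.5% of all tested genes were called (20.2% higher and 14.3% lower). Tsc22d3 (GILZ) had 314 and 345 normalized counts at day 0, then 5245 and 4548 (day 7), 9393 and 9937 (day 14) and 5604 and 6201 (day 21). Fkbp5, a chaperone of the receptor, was 10.3-fold higher at day 7 than at day 0, and Zbtb16 had 1026 and 925 normalized counts at day 7 against 3.18 and 7.84 at day 0. The part of glucocorticoid signalling in the levels of Per1, Per2 or any other clock gene was not tested.

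The genes whose profile over the 8 libraries came nearest to a clock gene were sought among 11231 tested genes with a mean of at least 50, by the root mean square difference of centred log2 values. For Per2 the nearest were Foxc1 (0.0781), Leprel1 (0.118) and Ebf1 (0.123), and near Npas2 were Tenc1 (0.0764) and Calcoco1 (0.109). Per2 and Npas2 were 0.190 apart, which placed Per2 at rank 160 for Npas2 and Npas2 at rank 48 for Per2, so many genes followed each of them more closely than they followed each other. For Arntl the nearest were Sin3a (0.0843), Alcam (0.0859) and Cmtm4 (0.0900), for Nr1d1 they were Cog1 (0.0505), Nfe2l2 (0.0664) and Lrig3 (0.0690), and for Dbp they were 9030617O03Rik (0.104), Relt (0.107) and Pabpc4 (0.135). These are descriptions over 8 libraries that share 4 times, and carry no test.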

How the data were processed

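RNA was measured by sequencing in 8 libraries, 2 at each of 4 times. Per the submitters' processing notes, TopHat2 2.0.11, HTSeq 0.6.1, DESeq (version not given) and the mouse genome mm9 were used; neither annotation nor strand is stated in the sources used here. Deposited was a signal for each gene, counts divided by 1 size factor per library by the authors. Values were whole multiples of what 1 read is worth, and 100% of the recovered reads were whole within 0.01 reads.

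Values were taken as log2(value + 1) for genes reaching 10 normalized counts in 2 or more libraries, and times were compared with limma 3.58.1 (trend, 4 residual and 8.16 prior degrees of freedom), two-sided, with Benjamini-Hochberg adjustment over 13527 genes and calls at adjusted p below 0.05. Fold changes are on this scale. Levels are values of single libraries or means of 2, and no interval is given for them. The fits were tested on simulated data. Alternatives were other pseudocounts, filters and scalings, edgeR 4.0.16 (quasi-likelihood) and DESeq2 1.42.0 on the recovered reads, a replicate block, only the 4 libraries compared, a per-library trend on transcript length and GC content removed, and each library left out.

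Lengths are those of the longest GENCODE M21 transcript of a symbol, found for 99.2% of tested genes. Promoter windows are from RefSeq (GRCm38.p6) and were matched by symbol for 9 of the 10 genes; Per2 is named only. The members and lists were chosen with earlier results of these data known. Named are all 10 members, 11 relatives, the 3 largest called changes against day 0 of each other clock list, the 3 nearest profiles of Arntl, Npas2, Per2, Nr1d1 and Dbp, and Fkbp5, Tsc22d3 and Zbtb16; Thra and Sphk2 were added for shared exons. Some genes that this rule names are not reported here. Endothelial, cardiomyocyte, adipocyte and mural markers were also summed. Fits ran in R 4.3.3; summaries and plots in Python 3.11.15 with pandas 2.3.3 and matplotlib 3.10.9.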

Additional observations from a re-analysis of the deposited data

How the results depend on the processing

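With 2 libraries a time, the calls of Npas2, Per2 and Dbp against day 0, of Cry1 and Cry2 at days 7 and 21 against day 0, of Arntl and Nr1d1 at day 14 against days 0 and 7, and of Nr1d1 and Clock at day 21 against day 14 held in all 8 fits that left out 1 library. Other pseudocounts and filters changed no member call. Removing the length and GC trend changed 10, most of them in comparisons with day 14.

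Of 246 recomputed counts 231 stayed within 1.5 times the reported one. With the trend removed, 2 members were called at day 21 against day 14 (4 reported) and 2 at day 21 against day 7 (1 reported). With only the 4 libraries compared, 12 wider clock genes were called at day 21 against day 14 (20 reported), and 2635 of all genes (4664 reported); with no filter, 739 of all genes were called at day 21 against day 7 (1182 reported). Leaving out 1 library gave 5 to 6 members at day 7, 5 to 8 at day 14 and 5 to 7 at day 21 against day 0, 2 to 4 at day 14 against day 7, 2 to 5 at day 21 against day 14 and 0 to 3 at day 21 against day 7. For the wider genes it gave 20 to 33, 34 to 38, 31 to 38, 17 to 32, 13 to 22 and 2 to 11 in the same order.

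Of 1140 recomputed values of single genes 1051 kept direction and side of the threshold and 32 changed sign, 1 of them called (Clock, day 14 against day 7). With the trend removed, day 14 against day 0 became 0.25 for Clock and 0.17 for Per3. Day 14 against day 7 became 0.063 for Clock, 0.032 for Npas2, 0.22 for Per2, 0.38 for Per3 and 0.041 for Cry2. Day 21 against day 14 became -0.13 for Npas2 and -0.32 for Per3 (upper quartile scaling -0.019 and -0.044; edgeR -0.013 for Per3), Per3 at day 21 against day 7 became 0.051, and Nr1d1 became -0.040 at day 7 and -0.0031 at day 21 against day 0. Leaving out 1 library turned uncalled values: Npas2 from -0.16 to 0.26 at day 21 against day 14 and -0.38 to 0.043 against day 7, Per2 from -0.20 to 0.39 and Cry1 from -0.20 to 0.046 at day 21 against day 7. Per3 ran from -0.43 to 0.086 at day 7 against day 0, -0.38 to 0.14 at day 14 against day 7, -0.23 to 0.28 at day 21 against day 14 and -0.29 to 0.091 against day 7. Nr1d1 ran from -0.040 to 0.076 at day 7 and -0.036 to 0.17 at day 21 against day 0 and -0.053 to 0.16 at day 21 against day 7, and Nr1d2 from -0.13 to 0.049 at day 21 against day 14. The causes were not tested.

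Libraries share only a replicate number (correlations of deviations from -0.036 to 0.074). With the replicate block 5, 7, 6, 4, 4 and 1 members were called in the 6 comparisons and 30, 39, 36, 29, 20 and 6 wider genes; 1 member call changed, Nr1d2 at day 14 against day 0.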

Other observations

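Marker sums of other cell types also moved between the times. Endothelial markers summed to 697 to 739 normalized counts at day 0, 608 to 611 at day 7, 339 to 420 at day 14 and 317 to 463 at day 21. Tek carried most of the endothelial sum at days 7, 14 and 21, with means of 340, 221 and 292. From day 0 to day 21 the Cdh5 mean fell from 180 to 5.49, that of Pecam1 from 91.4 to 23.1 and that of Tie1 from 41.4 to 4.08. The Tek and Vwf means did not fall between day 0 and day 21. Adipocyte markers summed to 930 to 1212, 8252 to 8542, 11507 to 12120 and 7348 to 7523 at days 0, 7, 14 and 21. Mural cell markers summed to 10370 to 10799, 13698 to 14201, 5570 to 6851 and 10671 to 15032 in the same order. Lpl and Fabp4 carried most of the adipocyte sum, with means of 6279 and 2055 at day 7. Of the 8 adipocyte markers 4 passed the filter, and Adipoq averaged 1.79 at day 7 and 23.9 at day 21. Pdgfrb carried most of the mural sum, with a mean of 9723 at day 0 and 5268 at day 14. Between these 2 times the Cspg4 mean fell from 42.8 to 9.03 and that of Kcnj8 rose from 2.76 to 21.3. Of 8 cardiomyocyte markers 3 passed the filter, Myh6 was at 0 in all libraries, and Tnnt2, which carried most of the sum, averaged 11409 normalized counts at day 7, 25595 at day 14 and 8215 at day 21, each against 1170 at day 0. Their part in the clock gene levels was not tested.

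The ratio of Nr1d1 to Arntl normalized counts, which sets a repressor beside its known target, was 4.22 and 4.21 at day 0, then 3.52 and 3.38 (day 7), 3.59 and 4.41 (day 14) and 5.12 and 5.81 (day 21), the highest in both libraries of day 21. The ratio of Dbp to Tef, both PAR bZIP genes, was 0.641 and 0.601 at day 0, then 0.238 and 0.244 (day 7), 0.184 and 0.225 (day 14) and 0.284 and 0.279 (day 21). The ratio of Cry1 to Cry2 ran between 0.184 and 0.254 over all libraries. Thra, which shares exon bases with Nr1d1, was higher than at day 0 by log2 changes of 0.76 at day 7, 0.34 at day 14 and 0.51 at day 21, where Nr1d1 had 0.02, -0.57 and 0.07.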
